A study of Phaseolus vulgaris with 18 samples.

Results

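Common bean (Phaseolus vulgaris) seeds, called grain in the labels, were compared with pods at 10 DAF, the youngest of the 3 stages of the series. DAF is read here as days after flowering, which the labels do not spell out. The group set against pod was grain of the line labelled 4004 at 10 DAF (3 libraries, called grain 1, 2 and 3), and its counterpart was pod of the same line and stage (3 libraries, called pod c1, c2 and c3). Both tissues come from 1 line, with no treatment or mutation given, and the remaining 12 libraries are grain and pod at 15 and at 20 DAF. Expression was measured by RNA sequencing of total RNA and deposited as TPM, transcript levels scaled for gene length and for the total of each library. A gene was kept if it reached at least 1 TPM in at least 3 of the 6 libraries, which held for 18500 of the 27420 genes in the table, or 67.5%. No label states that replicate libraries were taken from different plants; the p-values below therefore reflect library-to-library spread, part or all of which may be technical.

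A bean pod is the ripened wall of the ovary, and the grains inside it are the seeds, each with an embryo, an endosperm that is used up early and a seed coat of maternal origin. The young pod wall is green and photosynthetic, carries vascular strands that feed the seeds, and lays down fibre layers with thick secondary walls. The young seed first grows by cell division and later, in maturation, stores protein, starch and some oil under a small set of transcription factors. Storage proteins of the cupin family, known in bean as phaseolin, are the best-known product of that later phase. The RNA of a whole grain or pod is a mixture over cell types, so fewer cells of a type and less RNA per cell cannot be told apart in any value below.

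The libraries of each tissue were more alike than libraries of different tissues. Over the kept genes on the log2(TPM + 1) scale, Pearson's r was 0.962 to 0.972 between grain libraries, 0.925 to 0.945 between pod libraries and 0.630 to 0.711 between a grain and a pod library. Pod c2 stood somewhat apart. Its r with the other pod libraries was 0.925 and 0.926, against 0.939 with 1 pod library of 15 DAF, replicate 3. That 15 DAF library, which sums to only 436072 TPM, was also the closest library of another group for pod c1 (r 0.888) and pod c3 (r 0.915). Without pod c2, 3621 genes were higher and 2998 lower in grain. The 50 most abundant genes of each library took 15.4 to 17.2% of the TPM in grain libraries and 22.7 to 26.1% in pod libraries. Read depth is unknown, because the files give no counts.

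Embryo and seed coat markers were higher in grain, while the markers of endosperm and of the pod wall separated the tissues only in part. The embryo and maturation markers (7 genes, 6 kept, 6 higher in grain) summed to 1313 to 1976 TPM in grain libraries, against 0.907 to 3.06 TPM in pod libraries. The seed coat markers (13 genes, 6 kept, 6 higher in grain) summed to 245 to 736 TPM in grain, against 8.93 to 12.4 TPM in pod. Of the 6, TTG2 (Phvul.001G173700) lost its call without grain 1. Another GL2 gene (Phvul.010G148700), below the filter and so not tested, had 0.500, 0.391 and 0.342 TPM in grain, against 3.42, 4.33 and 0.929 TPM in pod. The endosperm markers (20 genes) gave almost no signal: 7 were listed at 0 in all 6 libraries, 2 genes described as ZOU were kept, 1 higher and 1 lower in grain, and the sums were 2.98 to 11.6 TPM in grain, against 1.61 to 5.47 TPM in pod. Of the pod wall and carpel markers (10 genes, 6 kept), 2, FUL and NST1, were lower in grain, the SHP1 and SHP2 genes and 1 IND gene were not called, and the carpel gene CRC was listed at 0. Their sums overlapped, at 116 to 207 TPM in grain, against 192 to 334 TPM in pod. A second IND gene (Phvul.009G149200), below the filter and so not tested, had 10.4, 0.093 and 2.94 TPM in grain and was listed at 0 in all 3 pod libraries. FUL (Phvul.009G203400), a MADS-box gene of fruit wall identity in Arabidopsis, had 0.229, 0.057 and 0.140 TPM in grain, against 51.5, 62.3 and 73.9 TPM in pod. The embryo markers were thus at or under a few TPM in pod, and FUL near 0 in grain. Phloem markers (22 genes, 21 kept, 14 lower and 1 higher in grain) summed to 318 to 387 TPM in grain, against 1100 to 1249 TPM in pod, and leaf-type chloroplast markers (22 genes, 20 kept, 19 lower in grain) to 2740 to 3587 TPM in grain, against 7037 to 20188 TPM in pod.

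The tissues differed at a large share of the kept genes, in both directions about equally often. Under limma with Benjamini-Hochberg adjustment over the 18500 genes, a gene was called if its adjusted p was under 0.05 and its log2 difference on log2(TPM + 1) was at least 1 in size. On these terms 3469 genes (18.8%) were higher in grain and 3214 (17.4%) were lower, together 36.1%, while 11817 were not called. The median log2 difference over all kept genes was 0.05. It was -0.09 where the 50 genes most abundant on average over all 18 libraries were left out and the libraries rescaled. The called genes had median log2 differences of 1.79 where grain was higher and -1.86 where grain was lower. A log2 difference of at least 5 was reached by 189 genes higher in grain and by 96 genes lower in grain. The libraries of the tissues did not overlap for 10576 genes (57.2%), among them 6503 (97.3%) of the called genes. The scale understates the fold of weakly expressed genes, since 1 TPM is added to every value. The filter also keeps genes expressed in 1 tissue alone: 1034 kept genes were under 1 TPM in every pod library, of which 948 were called higher in grain, and 793 were under 1 TPM in every grain library, of which 727 were called lower in grain. Genes without a description made up 2655 of the kept genes, 503 of those higher and 461 of those lower in grain.

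**Figure D1:**
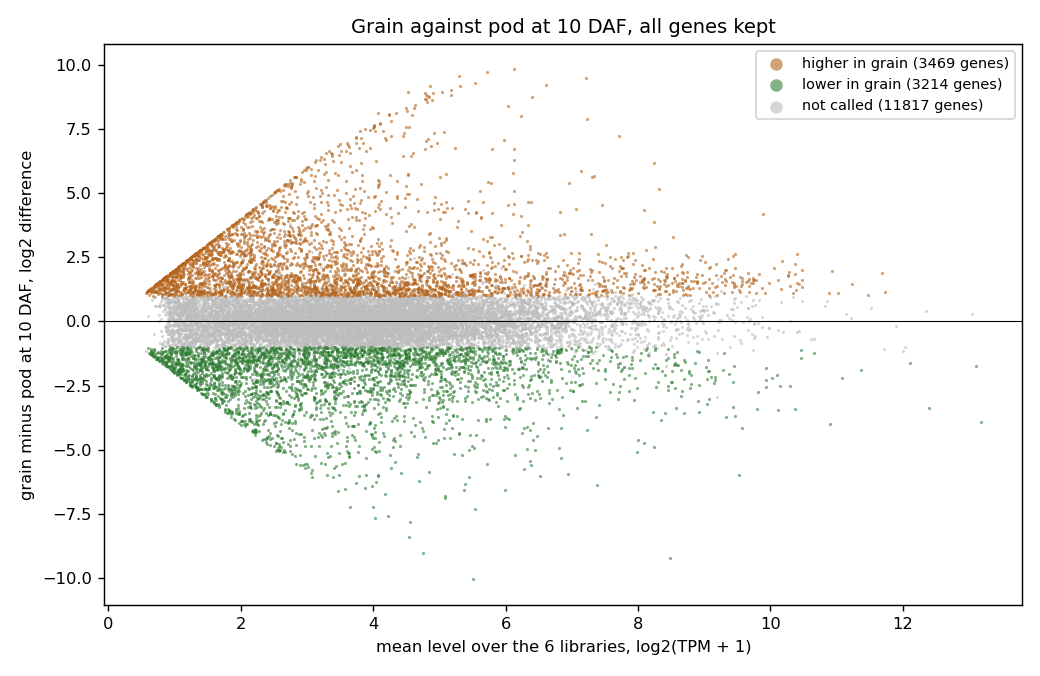
Each point is 1 of the 18500 kept genes, with its mean level over the 6 libraries (log2(TPM + 1)) on the x axis and its grain minus pod difference at 10 DAF (log2) on the y axis; colours mark the 3469 genes called higher in grain, the 3214 called lower and the 11817 not called. The called genes spread about evenly above and below 0, around a median of 0.05 over all genes.

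Among genes with a description, the 10 largest differences in favour of grain were of genes that reached at least 340 TPM in every grain library and stayed at a few TPM or less in pod. A gene described only as transcription factor-related (Phvul.006G175000) had 1207, 2699 and 2913 TPM in grain, against 0.878, 0.639 and 3.10 TPM in pod, a log2 difference of 9.83 ± 0.57 (SE, limma adjusted p = 8.31e-11). ADH1 (Phvul.001G064000), alcohol dehydrogenase, the last enzyme of ethanol fermentation, had 1016, 1411 and 2557 TPM in grain, against 0.399, 0.237 and 2.44 TPM in pod (log2 difference 9.73 ± 0.87, adjusted p = 2.94e-08). It is 1 of 5 kept genes described as ADH1, of which 2 were higher and 1 lower in grain. RAS1 (Phvul.008G097900), a regulator of the responses to abscisic acid and salt in Arabidopsis, had 2828, 3974 and 5626 TPM in grain, against 3.75, 4.32 and 5.70 TPM in pod (log2 difference 9.49 ± 0.35, adjusted p = 3.64e-13). For all 3 genes the lowest grain library lay far above the highest pod library.

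The other 7 genes of this group had log2 differences of 8.84 to 9.29. NF-YB6 (Phvul.003G087000), also called LEC1-LIKE, a DNA-binding subunit required for embryo development in Arabidopsis, had 451, 731 and 677 TPM in grain, against 0.234, 0.086 and 0.441 TPM in pod. HB33 (Phvul.006G217500), a zinc finger homeodomain protein, had 883, 443 and 340 TPM in grain, against 0.114, 0 and 0 TPM in pod. The purine permease PUP4 (Phvul.009G245500), of a family that carries purines and cytokinins across membranes, had 551, 790 and 1051 TPM in grain, against 0.539, 0.073 and 1.88 TPM in pod. The group also held the annexin ANNAT8 (Phvul.005G030100), a calcium-dependent membrane-binding protein and 1 of 4 kept genes of that description, 2 higher and 2 lower in grain. LCR47 (Phvul.008G145000), a small cysteine-rich secreted protein, a carbohydrate-binding X8 domain protein (Phvul.003G290300) and a protein of unknown function with a DUF1423 domain (Phvul.002G044800) completed it. No grain library overlapped a pod library for these 10 genes, which the rule that picked them requires.

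Among genes with a description, an acid phosphatase had the largest difference in favour of pod, and the other 9 of the 10 largest had log2 differences of -8.41 to -6.57. The phosphatase, of the HAD superfamily (Phvul.010G144300), had 0.234, 0.704 and 0.286 TPM in grain, against 2129, 810 and 1892 TPM in pod, a log2 difference of -10.06 ± 0.87 (limma adjusted p = 1.73e-08). CCoAOMT1 (Phvul.003G242350), a methyltransferase of lignin precursor synthesis, had 0.345, 0.074 and 0.060 TPM in grain, against 284, 355 and 123 TPM in pod (log2 difference -7.66 ± 0.49, adjusted p = 3.39e-10). IAA7 (Phvul.007G176600), an auxin-degradable repressor of auxin response, had 6.75, 1.13 and 0.873 TPM in grain, against 716, 286 and 247 TPM in pod (log2 difference -6.88 ± 0.47, adjusted p = 8.74e-10). The beta-amylase BAM5 (Phvul.011G107700), which releases maltose from starch, had 2.88, 1.31 and 2.69 TPM in grain, against 345, 591 and 229 TPM in pod. These genes were at or below a few TPM in every grain library.

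ASN1 (Phvul.008G259900), asparagine synthetase, which makes an amide used to carry nitrogen, had 0.110, 0.133 and 0.081 TPM in grain, against 49.9, 317 and 81.1 TPM in pod (log2 difference -6.63 ± 0.56, limma adjusted p = 1.44e-08). XTH6 (Phvul.003G231900), which cuts and rejoins xyloglucan in the wall, had 2.24, 3.07 and 4.80 TPM in grain, against 622, 150 and 693 TPM in pod. The expansin EXPA8 (Phvul.009G142800), a wall-loosening protein, had 17.0, 1.73 and 4.69 TPM in grain, against 583, 896 and 455 TPM in pod. Pod c2 was the highest pod library for ASN1 and EXPA8 and the lowest for XTH6, so the pod libraries themselves spread several-fold for such genes. A dormancy and auxin associated protein (Phvul.007G197700) and a pair of LOX1 genes, treated with the lipoxygenases below, completed the 10.

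**Figure D2:**
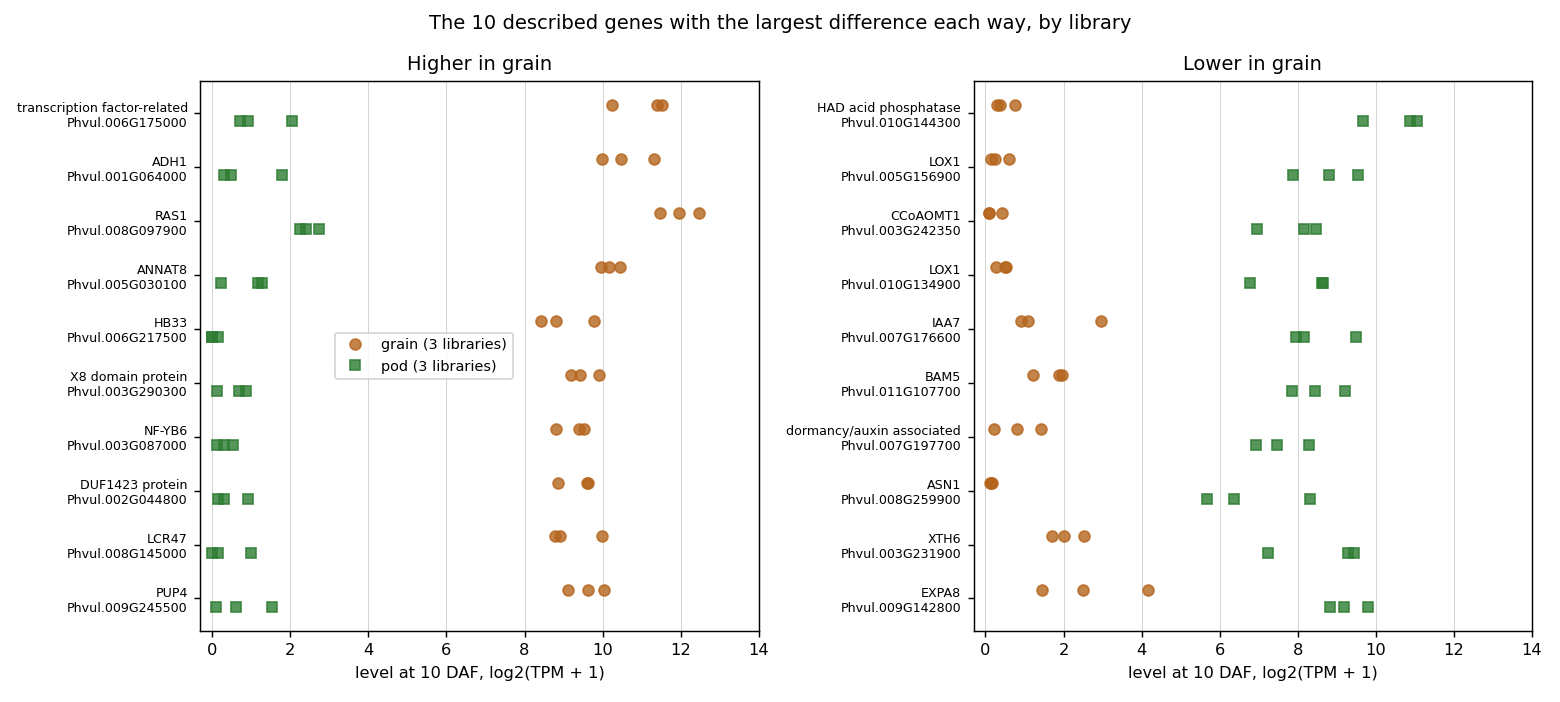
Level at 10 DAF (log2(TPM + 1)) in each library for the 10 described genes with the largest called difference higher in grain (left) and lower in grain (right); circles are the 3 grain libraries and squares the 3 pod libraries. In neither panel do the circles and squares of a gene overlap, and the smallest gap between the tissues on this scale in the right panel is that of EXPA8 (17.0 TPM in grain 1, against 455 TPM in pod c3).

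The most abundant described genes of each tissue were at high levels in both, whether or not they were called. LTP3 (Phvul.010G069100), a small secreted lipid transfer protein, was among the 3 most abundant in both, with 17434, 4510 and 10242 TPM in grain, against 11217, 5112 and 7954 TPM in pod, and was not called (log2 difference 0.27 ± 0.69, limma adjusted p = 0.786). GRP7 (Phvul.011G045000), an RNA-binding protein of the circadian clock output, had 5322, 7052 and 5764 TPM in grain, against 3868, 5332 and 4426 TPM in pod, and was not called. The gene of a ribosomal protein of the L18e/L15 superfamily (Phvul.003G204100) was higher in grain, with 6400, 8636 and 4659 TPM, against 1664, 1409 and 2132 TPM in pod (log2 difference 1.90 ± 0.41, adjusted p = 0.000963). LHCB1.3 (Phvul.002G196400), a chlorophyll-binding antenna protein, had 2196, 3151 and 2295 TPM in grain, against 7868, 4775 and 12215 TPM in pod (log2 difference -1.62 ± 0.56, adjusted p = 0.0268). Its call was lost without grain 1, grain 3, pod c1 or pod c3, with adjusted p-values of 0.0782, 0.0722, 0.0584 and 0.115. The metallothionein MT2A (Phvul.008G101800) had 3709, 2865 and 2466 TPM in grain, against 8572, 6842 and 3600 TPM in pod, and was not called (adjusted p = 0.102); without pod c3 the adjusted p was 0.0453 and the log2 difference -1.37.

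Regulators of seed maturation were higher in grain almost throughout. Of 13 matched genes, 11 were kept, 10 were higher in grain and none lower, against 18.8% and 17.4% of all kept genes, and the median log2 difference was 4.67. Their summed level was 1450, 2099 and 2254 TPM in grain libraries, against 13.4, 12.4 and 13.7 TPM in pod libraries. The second NF-YB6 gene (Phvul.007G234800) had 583, 465 and 662 TPM in grain, against 0.124, 0.080 and 1.10 TPM in pod. ABI3 (Phvul.008G122100), a B3-domain activator of storage genes, had 69.7, 128 and 168 TPM in grain, against 0, 0.048 and 0.408 TPM in pod (log2 difference 6.67 ± 0.29, limma adjusted p = 2.58e-12). FUS3 (Phvul.001G086800), another B3 regulator of the same network, had 21.7, 26.8 and 24.8 TPM in grain and was listed at 0 in all 3 pod libraries. LEC2 (Phvul.002G229800) was the weakest of the named regulators that were kept, with 6.14, 2.04 and 1.55 TPM in grain, against 0.223, 0 and 0.164 TPM in pod (log2 difference 1.76 ± 0.26, adjusted p = 2.09e-05). LEC1 (Phvul.006G057800), below the filter and so not tested, had 2.34, 1.11 and 0.226 TPM in grain and was listed at 0 in all 3 pod libraries.

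Storage protein genes were on in grain at 10 DAF, at levels that differed widely between its libraries. All 8 cupin genes of the storage list were kept and higher in grain, against 18.8% of all kept genes, with a median log2 difference of 4.33. Their sum was 157, 1209 and 2274 TPM in grain 1, 2 and 3, against 27.8, 15.2 and 72.3 TPM in pod. The cupin PAP85 gene Phvul.007G059700 had 26.9, 226 and 476 TPM in grain, against 3.97, 3.27 and 14.4 TPM in pod (log2 difference 4.39 ± 0.72, limma adjusted p = 6.16e-05). The grain libraries took the same order for the oil body protein oleosin OLEO1 (Phvul.007G138300), which coats oil droplets, with 179, 432 and 444 TPM in grain, against 0.431, 0.693 and 0.951 TPM in pod (log2 difference 7.60 ± 0.47, adjusted p = 2.06e-10). Grain 1 was thus the lowest grain library for storage and oil body products. The cupin genes belong to a family of similar sequences, and how reads shared between copies were assigned is not stated, so values of single cupin genes are uncertain.

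Proteins that protect drying seeds were partly on. Of 46 LEA and dehydrin genes 22 were kept, 12 (54.5%) higher and 2 (9.09%) lower in grain, against 18.8% and 17.4% of all kept genes. Their median log2 difference was 1.99. The largest difference was that of a putative LEA gene, Phvul.007G225200, with 36.4, 111 and 143 TPM in grain, against 0.832, 1.04 and 2.18 TPM in pod. AtLEA5, also called SAG21 (Phvul.006G107900), a senescence-associated member, was lower in grain, with 7.72, 6.17 and 5.02 TPM, against 22.6, 394 and 29.5 TPM in pod. Its call rested on pod c2: without that library the log2 difference was -1.89 and the adjusted p 0.0925, and neither lower call among the 22 remained. Of 10 oil body genes 9 were kept, 5 (55.6%) higher and 1 (11.1%) lower in grain, and without pod c2 the counts were 4 and 2. The lower one was a caleosin-related gene (Phvul.003G020800), with 3.78, 0.711 and 2.18 TPM in grain, against 14.1, 8.60 and 9.16 TPM in pod.

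Of 117 genes of the lipid-transfer and 2S albumin superfamily, small cysteine-rich proteins of seeds and other organs, 64 were kept. In grain 29 (45.3%) were higher and 12 (18.8%) lower, against 18.8% and 17.4% of all kept genes, so the lower share was near that of all genes. The summed levels overlapped, at 12278 to 28520 TPM in grain and 10546 to 24800 TPM in pod. The member Phvul.008G199100 had 1562, 605 and 1846 TPM in grain, against 2.78, 3.80 and 1.58 TPM in pod (log2 difference 8.39 ± 0.38, limma adjusted p = 2.78e-12), while Phvul.006G138700 had 0.911, 0.274 and 0.111 TPM in grain, against 165, 30.9 and 54.7 TPM in pod (log2 difference -5.58 ± 0.64, adjusted p = 7.52e-07). Of 35 protease inhibitor genes 17 were kept, 8 (47.1%) higher and 3 (17.6%) lower in grain, although the median log2 difference was -0.43. CYS2 (Phvul.001G264400), a phytocystatin that inhibits cysteine proteases, had 77.4, 368 and 447 TPM in grain, against 0.343, 0.147 and 1.51 TPM in pod. PDF2.1 (Phvul.002G278400), a plant defensin, had 890, 1347 and 1436 TPM in grain, against 2.04, 2.37 and 9.01 TPM in pod. Its list, of chitinases, defensins and pathogenesis-related proteins, counted 17 (37.8%) higher and 6 (13.3%) lower of 45 kept.

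The flavonoid pathway, which in the seed coat leads to proanthocyanidins (condensed tannins), was higher in grain at nearly every called step. Of 53 genes 34 were kept, 22 (64.7%) higher and 1 (2.94%) lower in grain, against 18.8% and 17.4% of all kept genes. The median log2 difference was 2.80. Their sum was 6615, 1832 and 2253 TPM in grain libraries, against 893, 496 and 1034 TPM in pod libraries, so grain 1, the lowest library for storage proteins, was the highest here. The most abundant member, F3H (Phvul.003G261900), flavanone 3-hydroxylase, an early step, had 3173, 690 and 838 TPM in grain, against 87.8, 33.6 and 71.0 TPM in pod (log2 difference 4.34 ± 0.63, limma adjusted p = 1.34e-05). BAN (Phvul.002G218700), anthocyanidin reductase, which opens the branch to tannins, had 602, 185 and 203 TPM in grain, against 1.17, 0.194 and 0.998 TPM in pod (log2 difference 7.36 ± 0.53, adjusted p = 1.61e-09).

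Steps between these enzymes and the regulators of the tannin branch followed. Named after their values were seen, the dihydroflavonol reductase gene DFR (Phvul.001G012700) had 493, 55.3 and 152 TPM in grain, against 1.00, 0.039 and 0.535 TPM in pod, and the anthocyanidin synthase gene ANS (Phvul.002G152700) had 493, 150 and 180 TPM in grain, against 2.11, 1.06 and 1.42 TPM in pod. TT2 (Phvul.010G130600), the MYB activator of tannin genes in the Arabidopsis seed coat, had 28.2, 21.1 and 27.5 TPM in grain and was listed at 0 in every pod library. The transporter TT12 (Phvul.008G197000), which loads tannin precursors into the vacuole, had 43.3, 17.7 and 18.0 TPM in grain, against 0.352, 0 and 0 TPM in pod. The exception was the flavonol synthase FLS1 (Phvul.008G166000), on the branch to flavonols, with 2.17, 0.894 and 2.23 TPM in grain, against 68.1, 22.3 and 37.0 TPM in pod (log2 difference -3.88 ± 0.60, limma adjusted p = 3.12e-05). Grain 1 was the highest grain library for BAN, DFR, ANS, F3H and TT12 alike.

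**Figure D3:**
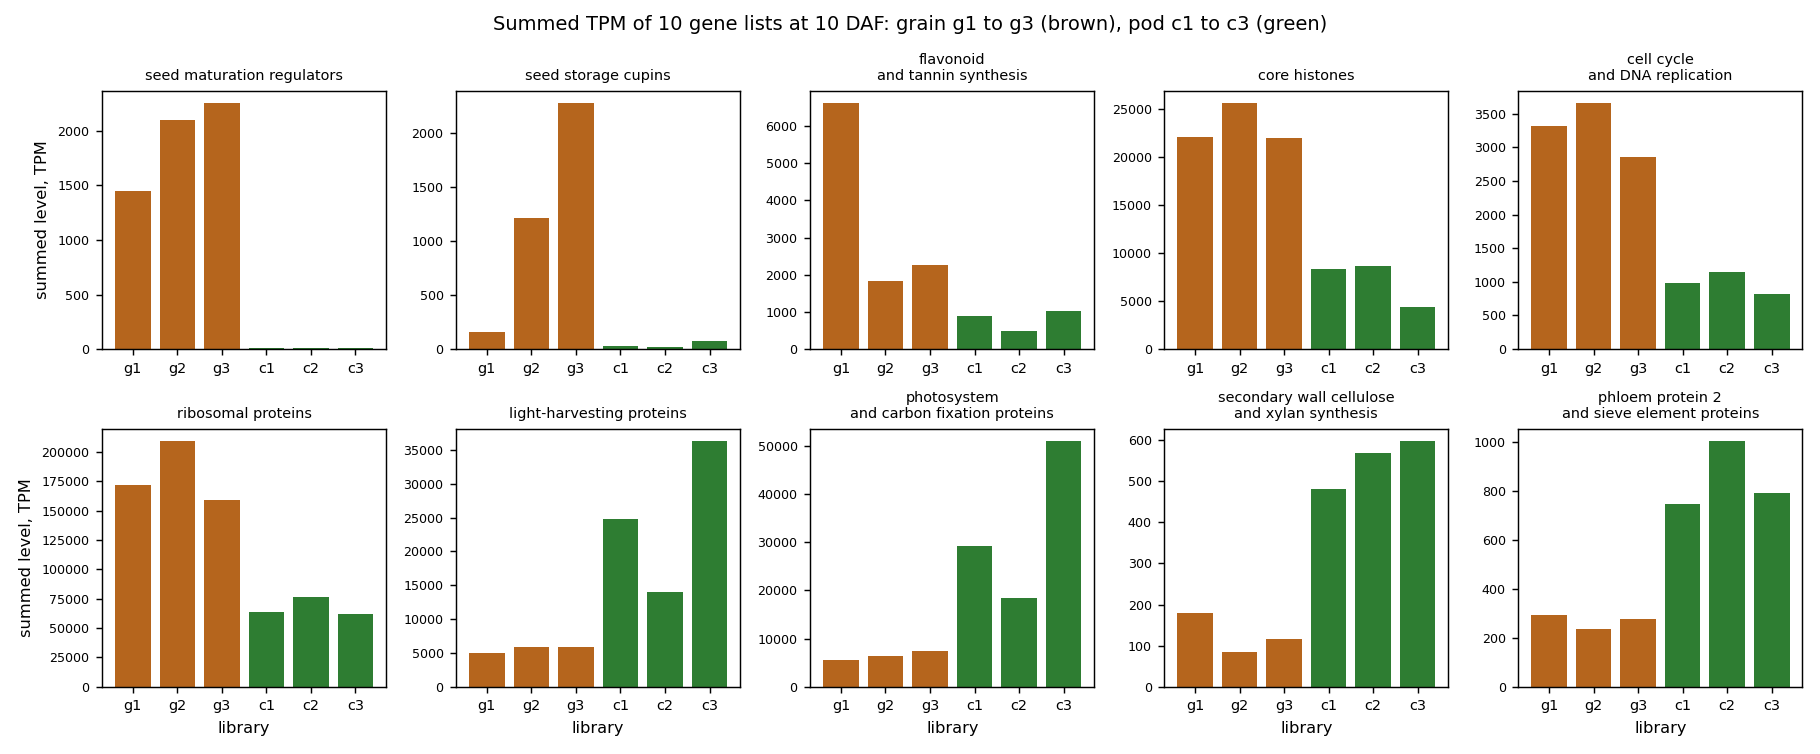
Summed level (TPM, axis from 0) of 10 gene lists in each library at 10 DAF, grain g1 to g3 in brown and pod c1 to c3 in green. Grain bars are higher for the maturation, cupin, flavonoid, histone, cell cycle and ribosomal lists, with cupins lowest and flavonoid genes highest in g1, and lower for the light-harvesting, photosystem, secondary wall and phloem lists.

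Genes of cell division were higher in grain as a group. Of 49 core histone genes 46 were kept, 40 (87%) higher and none lower in grain, against 18.8% and 17.4% of all kept genes. Their median log2 difference was 2.15, and their sum was 22132, 25640 and 21973 TPM in grain, against 8334, 8691 and 4364 TPM in pod. CENH3 (Phvul.010G112000), the histone H3 variant of centromeres, had 152, 183 and 110 TPM in grain, against 11.9, 7.42 and 2.97 TPM in pod (log2 difference 4.27 ± 0.50, limma adjusted p = 9.90e-07). The most abundant kept histone gene (Phvul.001G253700) was not called, with 1254, 1103 and 1148 TPM in grain, against 1727, 1979 and 1137 TPM in pod. Histone genes are near-identical copies, so the split of reads among them is uncertain, which touches the single genes more than the sum.

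Of 113 cell cycle and DNA replication genes 99 were kept, 76 (76.8%) higher and 3 (3.03%) lower in grain, against 18.8% and 17.4% of all kept genes. The median log2 difference was 1.78. CDKB2;2 (Phvul.001G000500), a cyclin-dependent kinase specific to plants and active at mitosis, had 415, 479 and 212 TPM in grain, against 19.5, 5.79 and 2.79 TPM in pod (log2 difference 5.43 ± 0.82, limma adjusted p = 2.44e-05). The D-type cyclin CYCD1;1 (Phvul.002G074800), of the class that acts at entry into the cycle, was lower in grain, with 13.4, 10.8 and 15.5 TPM, against 86.1, 166 and 128 TPM in pod (log2 difference -3.12 ± 0.32, adjusted p = 1.70e-07). Among the 3 kept genes described as CYCD1;1, 2 were lower and 1 higher in grain. Of 68 kept tubulin, kinesin and microtubule genes 31 (45.6%) were higher and 5 (7.35%) lower in grain. The lower count was 2 or 3 without grain 2, grain 3, pod c1 or pod c2. A motor protein gene (Phvul.007G159100) had 30.3, 33.6 and 23.9 TPM in grain, against 0.784, 0.394 and 0.108 TPM in pod. Of 97 kept genes of DNA methylation, small RNA and Polycomb silencing 48 (49.5%) were higher and 2 (2.06%) lower in grain. DME (Phvul.001G186500), a DNA glycosylase that removes methylated cytosines and is needed in the Arabidopsis central cell before the endosperm forms, had 99.5, 156 and 135 TPM in grain, against 11.7, 7.66 and 3.79 TPM in pod.

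Genes of protein synthesis took a larger share of the grain RNA. Of 361 ribosomal protein genes 323 were kept, 182 (56.3%) higher and 2 (0.619%) lower in grain, against 18.8% and 17.4% of all kept genes. The median log2 difference was 1.15. Together they held 171478, 209480 and 159292 TPM in grain libraries, against 63503, 76670 and 62197 TPM in pod libraries. The difference of the typical member was modest, with a median close to the threshold of 1, so 139 members were not called. Folding enzymes of the endoplasmic reticulum, where storage proteins are made, counted 20 (43.5%) higher and 2 (4.35%) lower of 46 kept. CRT1a (Phvul.007G200800), a calcium-binding chaperone, had 2038, 2059 and 2509 TPM in grain, against 698, 471 and 412 TPM in pod (log2 difference 2.09 ± 0.39, limma adjusted p = 0.000200).

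**Figure D4:**
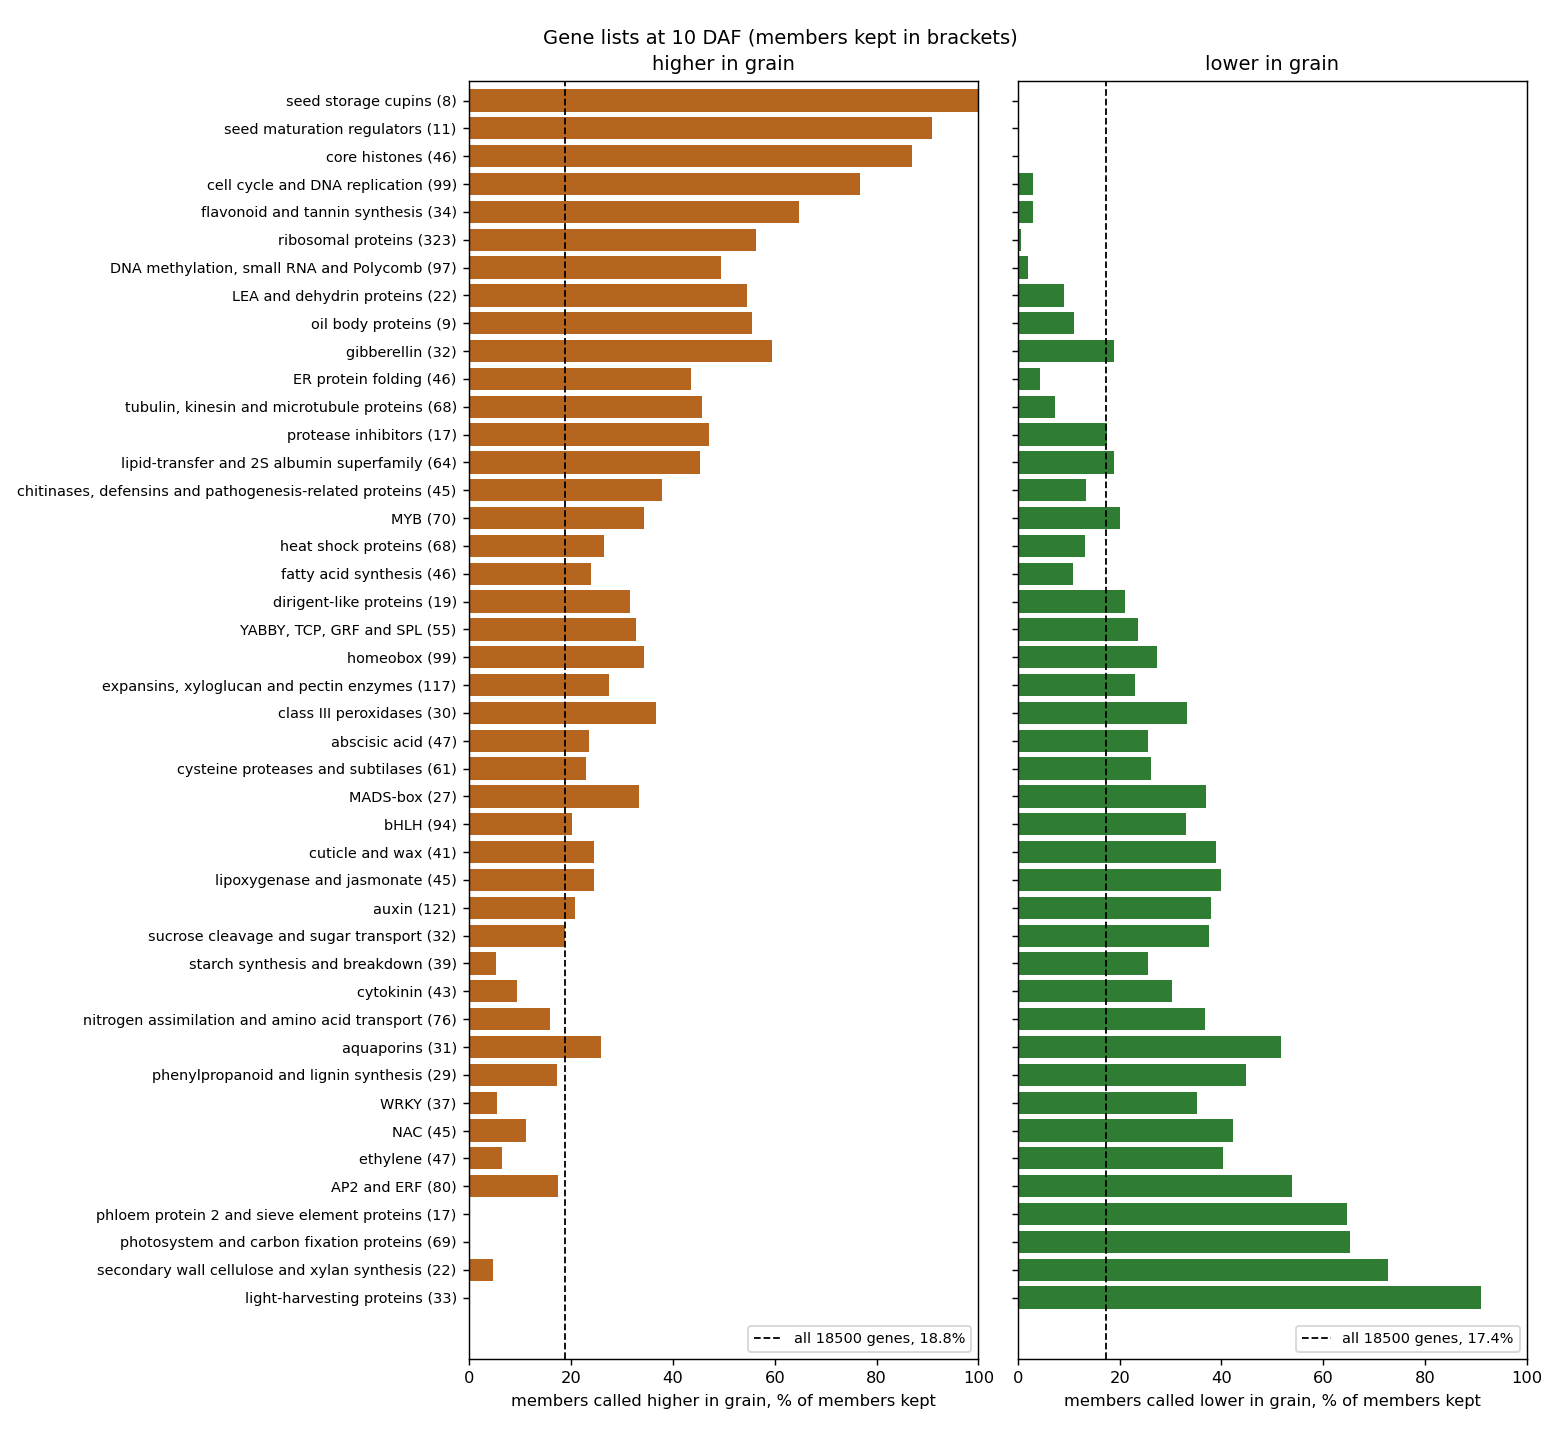
Share of the kept members of each of 44 gene lists called higher in grain (left) and lower in grain (right) at 10 DAF, with the number kept in brackets and dashed lines at the 18.8% and 17.4% of all 18500 kept genes. Storage cupins, maturation regulators, histones and cell cycle genes are at the top, and light-harvesting, secondary wall, photosystem and phloem genes at the bottom.

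Photosynthesis genes were lower in grain without exception among the called ones. Of 33 kept light-harvesting genes 30 (90.9%) were lower and none higher in grain (median log2 difference -2.66). Of 69 kept photosystem and carbon fixation genes 45 (65.2%) were lower and none higher (median -1.81). Over all kept genes 17.4% were lower and 18.8% higher. The light-harvesting genes summed to 4998, 5935 and 5896 TPM in grain, against 24775, 14028 and 36328 TPM in pod. PSAL (Phvul.008G054400), a subunit of photosystem I, had 381, 468 and 477 TPM in grain, against 2365, 930 and 4628 TPM in pod (log2 difference -2.30 ± 0.59, limma adjusted p = 0.00389). A gene of the small chain of ribulose bisphosphate carboxylase (Phvul.004G073400), the enzyme that fixes carbon dioxide, had 3.28, 3.31 and 7.26 TPM in grain, against 484, 90.2 and 1030 TPM in pod (log2 difference -6.07 ± 0.66, adjusted p = 3.81e-07), and the gene of its activase RCA (Phvul.001G234300) had 13.0, 7.37 and 13.9 TPM in grain, against 430, 326 and 1392 TPM in pod. Pod c2 was the lowest pod library for each of these genes, yet still above every grain library, and with each library left out 26 to 30 light-harvesting and 34 to 49 photosystem genes were lower in grain, both fewest without pod c3 and most without pod c2. Antenna and small chain genes are close copies, so the values of single genes are uncertain.

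Genes of secondary wall cellulose and xylan synthesis, which build thick walls, were mostly lower in grain. Of 22 kept members 16 (72.7%) were lower and 1 (4.55%) higher, against 17.4% and 18.8% of all kept genes. Their median log2 difference was -1.78, and they summed to 179, 83.7 and 116 TPM in grain, against 481, 569 and 599 TPM in pod. NST1 (Phvul.010G118700), the NAC switch of secondary wall formation in fibres, had 0.157, 0 and 0.038 TPM in grain, against 20.0, 27.1 and 14.6 TPM in pod (log2 difference -4.30 ± 0.33, limma adjusted p = 4.62e-09). MYB26 (Phvul.005G157600), which acts above NST1 in the Arabidopsis anther, had 0.059, 0.044 and 0.036 TPM in grain, against 18.0, 21.8 and 9.48 TPM in pod. PARVUS (Phvul.009G055600), needed to start xylan chains, had 9.58, 2.65 and 4.55 TPM in grain, against 187, 100 and 214 TPM in pod. The 1 gene higher in grain, FRA8 (Phvul.005G130800), lost its call without pod c3 (adjusted p = 0.0549). FRA8 is the description of 2 kept genes, 1 higher and 1 lower in grain.

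Phenylpropanoid and lignin genes had more members lower than higher in grain. Of 29 kept members 13 (44.8%) were lower and 5 (17.2%) higher. Over all kept genes 17.4% were lower and 18.8% higher, so the higher share was near that of all genes. The summed levels overlapped, at 1222, 638 and 1002 TPM in grain, against 1208, 1114 and 799 TPM in pod. CAD6 (Phvul.003G287500), a cinnamyl alcohol dehydrogenase, had 155, 250 and 287 TPM in grain, against 5.53, 0.279 and 0.958 TPM in pod (log2 difference 6.47 ± 0.60, limma adjusted p = 4.82e-08), in contrast to CCoAOMT1 above. Class III peroxidases, secreted enzymes that oxidise lignin units among others, counted 11 (36.7%) higher and 10 (33.3%) lower of 30 kept. The peroxidase Phvul.001G092900 had 367, 209 and 399 TPM in grain, against 0.426, 0.352 and 1.21 TPM in pod, while Phvul.007G082700 had 4.90, 4.99 and 4.29 TPM in grain, against 64.4, 81.2 and 36.7 TPM in pod. Enzymes that loosen or remodel primary walls were likewise divided, with 32 (27.4%) higher and 27 (23.1%) lower of 117 kept, against 18.8% and 17.4% of all kept genes.

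Phloem genes were lower in grain. Of 17 kept genes of phloem protein 2 and sieve elements 11 (64.7%) were lower and none higher, against 17.4% and 18.8% of all kept genes. The median log2 difference was -1.62. PP2-A1 (Phvul.002G098900), a lectin of sieve elements, had 12.3, 2.64 and 5.86 TPM in grain, against 193, 124 and 177 TPM in pod (log2 difference -4.56 ± 0.44, limma adjusted p = 7.82e-08). APL (Phvul.005G047600), the regulator of phloem identity in Arabidopsis, had 1.78, 0.925 and 0.832 TPM in grain, against 27.3, 17.7 and 10.5 TPM in pod. The sucrose-proton symporter SUC2, which loads sucrose into the phloem in Arabidopsis leaves, is the description of 4 kept genes, 1 higher and 3 lower in grain. The higher one, Phvul.004G085100, had 36.3, 14.9 and 20.9 TPM in grain, against 1.61, 1.23 and 0.443 TPM in pod (log2 difference 3.53 ± 0.37, adjusted p = 2.08e-07). Its paralog Phvul.007G088200 had 52.0, 64.0 and 40.7 TPM in grain, against 413, 193 and 259 TPM in pod (log2 difference -2.40 ± 0.39, adjusted p = 5.53e-05).

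Sugar and starch genes had more members lower than higher in grain. Of 32 kept genes of sucrose cleavage and sugar transport 12 (37.5%) were lower and 6 (18.8%) higher in grain. Over all kept genes 17.4% were lower and 18.8% higher, so the higher share was that of all genes. Genes described as cell wall invertases, enzymes that act on sucrose outside the cell, were on in different tissues: CWINV2 (Phvul.007G227200) had 25.0, 9.36 and 20.0 TPM in grain and was listed at 0 in every pod library, whereas cwINV3 (Phvul.001G036700) had 0.192, 0 and 0.067 TPM in grain, against 44.3, 72.8 and 55.0 TPM in pod. The most abundant member, the sucrose synthase SUS4 (Phvul.003G127500), had 888, 1231 and 1841 TPM in grain, against 1494, 1031 and 1226 TPM in pod, and was not called (log2 difference 0.03 ± 0.38, limma adjusted p = 0.957). Of 39 kept starch genes 27 were not called, 10 (25.6%) were lower and 2 (5.13%) higher in grain. The lower count was 8 without grain 1 or without grain 3. One of the higher genes, the debranching enzyme ISA1 (Phvul.002G303600), had 21.5, 27.2 and 31.3 TPM in grain, against 9.87, 13.4 and 13.2 TPM in pod (log2 difference 1.07 ± 0.31, adjusted p = 0.00952), and fell under the minimum difference without grain 3 (0.95) or pod c1 (0.94).

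Of 46 kept fatty acid synthesis genes 30 were not called, 11 (23.9%) were higher and 5 (10.9%) lower in grain, against 18.8% and 17.4% of all kept genes, and the lower count was 3 without pod c1. A stearoyl-acyl-carrier-protein desaturase (Phvul.001G064100), which makes the first double bond of oleic acid, had 394, 623 and 764 TPM in grain, against 10.7, 1.94 and 3.65 TPM in pod (log2 difference 6.72 ± 0.56, limma adjusted p = 1.21e-08). LACS1 (Phvul.007G212500), which activates long-chain fatty acids, was lower in grain, with 18.4, 7.08 and 17.7 TPM, against 62.9, 62.3 and 34.7 TPM in pod. Cuticle and wax genes counted 10 (24.4%) higher and 16 (39.0%) lower of 41 kept. FAR5 (Phvul.011G180400), a fatty acyl reductase of suberin and wax alcohols, had 29.7, 22.3 and 21.3 TPM in grain, against 0.130, 0.125 and 0.286 TPM in pod, and the elongating enzyme KCS19 (Phvul.007G009200) had 0.776, 1.27 and 1.34 TPM in grain, against 61.4, 86.9 and 60.9 TPM in pod. KCS19 is the description of 2 kept genes, 1 higher and 1 lower in grain. Nitrogen assimilation and amino acid transport counted 12 (15.8%) higher and 28 (36.8%) lower of 76 kept. GDH2 (Phvul.003G225100), glutamate dehydrogenase, had 169, 235 and 191 TPM in grain, against 0.029, 0 and 0.259 TPM in pod (log2 difference 7.50 ± 0.31, adjusted p = 1.31e-12), opposite to ASN1 above.

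Water channels divided by member. Of 31 kept aquaporins 16 (51.6%) were lower and 8 (25.8%) higher in grain, against 17.4% and 18.8% of all kept genes. They summed to 6603, 5892 and 5914 TPM in grain, against 20124, 11702 and 18791 TPM in pod. TIP3;1 (Phvul.004G136000), the aquaporin of protein storage vacuoles, had 175, 506 and 644 TPM in grain, against 0.594, 0.716 and 3.93 TPM in pod (log2 difference 7.34 ± 0.47, limma adjusted p = 2.82e-10). The vacuolar TIP2;1 (Phvul.010G147100) had 6.76, 1.44 and 2.24 TPM in grain, against 287, 61.0 and 52.2 TPM in pod, and the plasma membrane PIP1;4 (Phvul.008G226000) had 1685, 1101 and 1388 TPM in grain, against 6824, 3595 and 5217 TPM in pod. Of the 2 kept genes described as TIP2;1, 1 was higher and 1 lower in grain. TIP3;1 took the same order of grain libraries as the cupins, with grain 1 the lowest.

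Lipoxygenases, which oxidise polyunsaturated fatty acids and in soybean also serve as temporary nitrogen stores in leaves, showed opposite members within a run of neighbouring identifiers. Of 9 kept genes described as LOX1, 5 were lower and 3 higher in grain. Phvul.005G156900 had 0.195, 0.506 and 0.108 TPM in grain, against 744, 234 and 446 TPM in pod (log2 difference -8.41 ± 0.52, limma adjusted p = 2.24e-10), and Phvul.010G134900 had 0.445, 0.206 and 0.418 TPM in grain, against 394, 108 and 401 TPM in pod (log2 difference -7.58 ± 0.44, adjusted p = 7.80e-11). Phvul.005G156700 went the other way, with 11.8, 58.4 and 125 TPM in grain, against 0.441, 0.176 and 1.41 TPM in pod (log2 difference 4.84 ± 0.54, adjusted p = 5.24e-07). How reads shared between such paralogs were assigned is not stated, so the values of single LOX1 genes are uncertain. The whole list of lipoxygenase and jasmonate genes counted 11 (24.4%) higher and 18 (40%) lower of 45 kept, against 18.8% and 17.4% of all kept genes.

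Among the hormone lists, gibberellin had the largest share of kept members higher in grain, at 59.4%. Of 63 genes 32 were kept, 19 (59.4%) higher and 6 (18.8%) lower in grain, against 18.8% and 17.4% of all kept genes. The lower share was thus near that of all genes, and the median log2 difference was 2.04. KAO2 (Phvul.006G123500), ent-kaurenoic acid oxidase, a middle step of gibberellin synthesis, had 235, 411 and 299 TPM in grain, against 0, 0.099 and 0.452 TPM in pod (log2 difference 8.04 ± 0.43, limma adjusted p = 2.78e-11). Of the 2 kept genes described as KAO2, however, 1 was higher and 1 lower in grain. Single genes of later steps, named after their values were seen, were higher in grain. The 20-oxidase gene GA20OX2 (Phvul.010G087500) had 117, 172 and 159 TPM in grain, against 0.027, 0.035 and 0.605 TPM in pod. The 3-oxidase gene GA3OX1 (Phvul.009G097100), whose product makes the active hormone, had 42.9, 39.1 and 41.3 TPM in grain, against 0.043, 0 and 0 TPM in pod. A gibberellin-regulated gene (Phvul.009G181500) was lower in grain, with 69.0, 43.2 and 25.5 TPM, against 1293, 1764 and 1407 TPM in pod (log2 difference -5.09 ± 0.49, adjusted p = 8.25e-08). The summed levels of the list overlapped between the tissues, at 2149 to 2333 TPM in grain and 1938 to 2413 TPM in pod.

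Auxin, cytokinin and ethylene genes had more members lower than higher in grain, and abscisic acid genes about as many of each. In that order the shares lower in grain were 38%, 30.2%, 40.4% and 25.5%, against 17.4% of all kept genes. The shares higher in grain were 20.7%, 9.3%, 6.38% and 23.4%, against 18.8% of all kept genes. Auxin genes counted 25 higher and 46 lower of 121 kept in grain, and summed to 2637 to 3157 TPM in grain, against 4183 to 5500 TPM in pod. Ethylene genes counted 3 higher and 19 lower of 47, with sums of 1214 to 1492 TPM in grain, against 1531 to 2416 TPM in pod. Cytokinin genes counted 4 higher and 13 lower of 43, yet their sums were higher in grain, at 1363 to 1979 TPM, against 557 to 953 TPM in pod. The most abundant cytokinin member was PUP4 (Phvul.009G245500) above, higher in grain by a log2 difference of 8.84. This gene alone held 551, 790 and 1051 of the 1363, 1738 and 1979 TPM summed in grain 1, 2 and 3. The higher sums in grain thus rest in large part on it. Another PUP4 gene abundant in grain at 10 DAF (Phvul.009G245400) is given further below. Abscisic acid genes counted 11 higher (23.4%) and 12 lower (25.5%) of 47, and summed to 2328 to 3877 TPM in grain, against 1556 to 2121 TPM in pod. The abscisic acid genes that were higher in grain included the most abundant of the list, HAI3 (Phvul.001G236000), a phosphatase induced by the hormone, with 781, 1452 and 1336 TPM in grain, against 52.0, 12.9 and 14.8 TPM in pod (log2 difference 5.67 ± 0.47, limma adjusted p = 9.47e-09). ABI5 (Phvul.005G124200), a bZIP factor of seed responses to abscisic acid, had 205, 534 and 548 TPM in grain, against 0.230, 0.042 and 1.45 TPM in pod. CCD4, also named NCED4 (Phvul.002G120600), a carotenoid-cleaving enzyme, had 16.9, 15.5 and 15.8 TPM in grain, against 269, 399 and 701 TPM in pod. LOG1 (Phvul.011G080600), which releases active cytokinin, had 8.47, 4.31 and 8.05 TPM in grain, against 241, 487 and 127 TPM in pod (log2 difference -5.01 ± 0.42, adjusted p = 1.11e-08). The ethylene receptor ETR1 (Phvul.011G216400) was 1 of the 3 ethylene genes higher in grain, with 94.0, 196 and 275 TPM, against 4.08, 12.1 and 3.69 TPM in pod.

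Transcription factor families divided by tissue to different degrees. Over all kept genes 18.8% were higher and 17.4% lower in grain. Several families leaned to pod. AP2 and ERF genes counted 14 (17.5%) higher and 43 (53.8%) lower of 80 kept in grain, and WRKY genes 2 (5.41%) higher and 13 (35.1%) lower of 37. NAC genes counted 5 (11.1%) higher and 19 (42.2%) lower of 45, and bHLH genes 19 (20.2%) higher and 31 (33%) lower of 94. The NAC count of lower genes was 11 without pod c2 and 11 without grain 2, and the summed WRKY level was 408, 355 and 365 TPM in grain, against 553, 1142 and 543 TPM in pod, with pod c2 the highest. Homeobox genes (34, or 34.3%, higher and 27, or 27.3%, lower of 99) were above the shares of all kept genes both ways. MYB genes (24, or 34.3%, higher and 14, or 20%, lower of 70) were above it for the higher share, with the lower share near that of all genes. ABI4 (Phvul.008G222400), an AP2 factor of sugar and abscisic acid response in seeds, had 70.1, 142 and 100 TPM in grain, against 0.091, 0.058 and 0 TPM in pod (log2 difference 6.59 ± 0.30, limma adjusted p = 2.78e-12).

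Genes of floral and organ identity appeared on both sides. MADS-box genes counted 9 (33.3%) higher and 10 (37%) lower of 27 kept in grain, against 18.8% and 17.4% of all kept genes. SEP3 (Phvul.L003446), a partner in the complexes that specify floral organs and ovules, had 258, 245 and 253 TPM in grain, against 10.4, 2.08 and 1.87 TPM in pod (log2 difference 5.77 ± 0.56, limma adjusted p = 8.27e-08). This gene went opposite to the FUL gene above, but of the 3 kept genes described as SEP3, 2 were higher and 1 lower in grain. YAB1, also called FIL (Phvul.010G079200), a YABBY gene of lateral organ polarity, had 19.9, 22.6 and 31.8 TPM in grain and was listed at 0 in every pod library. SPL12 (Phvul.005G074000), an SBP-domain factor, had 0.904, 0.272 and 0.331 TPM in grain, against 75.3, 83.5 and 69.1 TPM in pod (log2 difference -5.70 ± 0.44, adjusted p = 3.52e-09). Among the 5 kept genes described as SPL12, 1 was higher and 1 lower in grain. The homeodomain gene BLH1 (Phvul.011G099100) had 0.259, 0.024 and 0.158 TPM in grain, against 22.8, 42.7 and 66.6 TPM in pod.

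The genes called at 10 DAF were followed at the later stages, whose libraries are separate. Of the 3469 genes higher in grain at 10 DAF, 1321 (38.1%) were also called higher at 15 DAF, 776 (22.4%) at 20 DAF and 736 (21.2%) at both, while 570 were called lower at 20 DAF. Among the 18500 genes kept by their levels at 10 DAF, they were 80.4% of the 1643 higher in grain at 15 DAF and 71.9% of the 1079 higher at 20 DAF, and genes that passed 1 TPM only later are not counted. Of the 3214 genes lower in grain at 10 DAF, 2716 (84.5%) were also called lower at 15 DAF, 2767 (86.1%) at 20 DAF and 2586 (80.5%) at both, and they were 48.4% of the kept genes lower at 15 DAF and 26.1% of those lower at 20 DAF. As background, at 15 DAF 8.88% of the 18500 genes were called higher and 30.4% lower in grain, and at 20 DAF 5.83% and 57.3%.

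These stage counts move with the scale of the libraries. The median log2 difference over all kept genes was 0.05 at 10 DAF, -0.55 at 15 DAF and -1.20 at 20 DAF as deposited. It was 0.01, -0.02 and -0.04 with median-ratio scaling, which divides each library by its typical ratio to a reference made of all libraries. The change of the difference itself was tested by the interaction of tissue and stage, where a positive change means a higher grain minus pod difference at 10 DAF. Against 15 DAF the difference was larger at 10 DAF for 1989 genes (10.8%) and smaller for 325 (1.76%), together 12.5%, which became 969 and 738 with median-ratio scaling. Against 20 DAF it was larger for 10265 genes (55.5%) and smaller for 624 (3.37%), together 58.9%, which became 2387 and 1635. One pod library of 15 DAF, replicate 3, sums to 436072 TPM, far below the 823001 to 999633 TPM of all others, and without it 6473 genes had a larger difference at 10 than at 15 DAF.

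Among the genes higher in grain at 10 DAF, the difference was larger than at 20 DAF for 2648 (76.3%), or for 1352 (39.0%) with median-ratio scaling, and smaller for 120, or 262 with that scaling. These genes were picked for a high difference at 10 DAF, so the counts describe them and carry no further weight. The cell cycle list stayed on that side under both scalings, with 82 of 99 kept members larger at 10 than at 20 DAF and none smaller, and 42 larger and 2 smaller after median-ratio scaling. Storage cupins were the reverse: the difference of all 8 was smaller at 10 DAF than at 15 and at 20 DAF under both scalings, with medians of 4.33 at 10 DAF, 11.39 at 15 DAF and 11.56 at 20 DAF. LEA and dehydrin genes had 15 of 22 smaller at 10 than at 20 DAF under both scalings. For ribosomal proteins the scale decided much of the count, with 295 of 323 larger at 10 than at 20 DAF as deposited and 58 after median-ratio scaling.

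All 20 described genes of the largest differences kept their direction and their call at 15 and at 20 DAF. IAA7 (Phvul.007G176600) was the steadiest of them, with log2 differences of -6.88 at 10 DAF, -6.78 at 15 DAF and -6.64 at 20 DAF. LCR47 (Phvul.008G145000) changed most among the genes higher in grain, with 8.85 at 10 DAF, 5.67 at 15 DAF and 1.96 at 20 DAF (change against 20 DAF 6.89, limma adjusted p = 4.55e-06). The LOX1 gene Phvul.010G134900 changed most among those lower in grain, with -7.58 at 10 DAF, -1.91 at 15 DAF and -1.21 at 20 DAF (change against 20 DAF -6.37, adjusted p = 8.33e-07). For both the difference between the tissues was widest at 10 DAF.

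**Figure D5:**
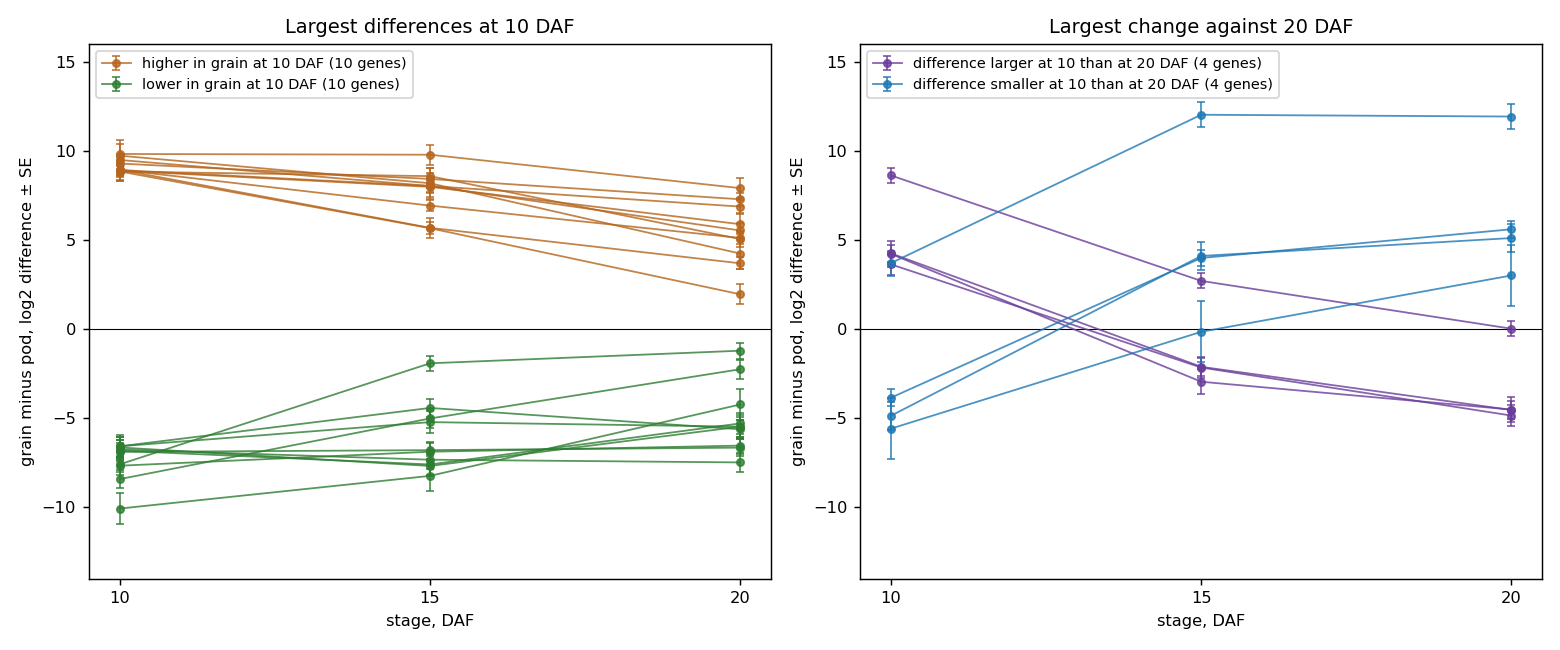
Grain minus pod difference (log2, with SE) at 10, 15 and 20 DAF for the 20 described genes with the largest differences at 10 DAF (left) and for the 8 described genes whose difference changed most against 20 DAF (right). On the left no gene crosses 0, and on the right 6 genes change sign by 20 DAF, 1 comes to 0.03 and 1, a cupin, reaches 11.93.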

How the data were processed

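The series holds 18 RNA-seq libraries of grain and pod at 10, 15 and 20 DAF, 3 of each. Per the labels' protocols, RNA was extracted with TRIzol and libraries were made with a SMARTER mRNA-Seq kit. The authors deposited 1 table of TPM per gene with descriptions; which aligner, counting tool and build they used is not stated in any source read here. The authors' pod columns of 10 DAF are numbered otherwise than their labels, so they were tied to the group only.

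Kept genes had at least 1 TPM in at least 3 of the 6 libraries. Levels were taken as log2(TPM + 1) and fitted with limma 3.58.1 (R 4.3.3) in 1 model of 6 group means over all 18 libraries (12 residual degrees of freedom, intensity trend, 2-sided, Benjamini-Hochberg over 18500 genes). Calls were made at adjusted p < 0.05 with a log2 difference at or above 1 in size. Tables and figures were made with Python 3.11.15. The steps were tested on simulated data. An exact permutation test of 3 against 3 libraries could not pass the threshold, so summed levels carry no test.

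The 44 gene lists and the marker genes were matched on the descriptions. The comparison, the lists and the markers were chosen with earlier results of these data known, and no list was tested. Named genes are the 10 largest described differences each way (at least 20 TPM in the higher tissue, libraries apart), the 3 most abundant described genes per tissue, for each list the largest called difference each way (at least 5 TPM) and the most abundant member, the 4 largest called changes each way against 20 DAF, and the markers. No gene matched the markers MEA, IKU2, MINI3, MUM4, ALC, NST3 or SEO. Alternatives changed the pseudocount, the filter, the scaling, the libraries fitted, the trend, the minimum difference and each library; leaving a library out was added for the lists after the data were seen. No sequence or coordinate is given, since the identifiers were not matched to the reference tables used here.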

Additional observations from a re-analysis of the deposited data

Results flagged for a closer look

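The grain minus pod difference of 8 genes changed most between 10 and 20 DAF, by the interaction of tissue and stage in limma with Benjamini-Hochberg adjustment over all 18500 genes; each value is the log2 difference at 10 DAF minus that at 20 DAF.

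The difference was larger at 10 DAF for IAGLU (Phvul.001G265400), an enzyme that conjugates auxin to glucose, by 8.79 (adjusted p = 7.97e-08). It averaged 145.5 ± 101.0 TPM in grain and 5.54 ± 1.59 TPM in pod at 10 DAF, and 0.237 ± 0.271 TPM in grain and 27.7 ± 6.51 TPM in pod at 20 DAF (SD, n = 3 each). The gene was thus higher in grain at 10 DAF and higher in pod at 20 DAF. A MATE efflux transporter (Phvul.003G064300) changed by 8.73 (adjusted p = 4.89e-06) and the glucosyltransferase UGT73B3 (Phvul.002G054100) by 8.48 (adjusted p = 1.20e-06), with the same turn of direction. The purine permease PUP4 gene Phvul.009G245400 changed by 8.60 (adjusted p = 1.37e-08). It averaged 595 ± 112 TPM in grain and 0.494 ± 0.097 TPM in pod at 10 DAF, and 0.300 ± 0.317 TPM in grain and 0.259 ± 0.175 TPM in pod at 20 DAF.

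The difference was smaller at 10 DAF for a Kunitz protease inhibitor (Phvul.004G129600), with a change of -9.97 (adjusted p = 4.26e-06). It averaged 3.00 ± 0.78 TPM in grain and 182 ± 187 TPM in pod at 10 DAF, and 127 ± 121 TPM in grain and 2.89 ± 4.03 TPM in pod at 20 DAF. A dirigent-like gene (Phvul.005G032600) changed by -9.45 (adjusted p = 2.25e-08), and it was listed at 0 in all pod libraries of 15 and 20 DAF. A lipid-transfer-like gene (Phvul.009G211100) changed by -8.59 (adjusted p = 0.00668), with 14.7, 2.04 and 8.31 TPM in grain, against 525, 73.5 and 1230 TPM in pod at 10 DAF. Its call at 10 DAF was lost without grain 2 (adjusted p = 0.0565) or pod c3 (adjusted p = 0.0622). The cupin PAP85 gene Phvul.007G059750 changed by -8.22 (adjusted p = 8.47e-06), being higher in grain at both stages, with 55.7 ± 48.6 TPM in grain and 1.51 ± 0.87 TPM in pod at 10 DAF, and 7880 ± 1913 TPM in grain and 1.01 ± 0.46 TPM in pod at 20 DAF. The sign of none of the 8 changes turned under any alternative run.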

How the results depend on the processing

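The counts at 10 DAF (3469 higher and 3214 lower in grain) moved by over 1.5 times under 1 alternative, a minimum log2 difference of 2, which left 1480 and 1431 by construction. Leaving out each library gave 3168 to 3621 higher and 2734 to 3172 lower. The stage counts moved more. Genes with a larger difference at 10 than at 15 DAF (1989) numbered 1081 with a pseudocount of 0.1 TPM, 969 with median-ratio scaling, 922 without the 50 most abundant genes, 7035 after rescaling every library to the same sum, 785 with a minimum difference of 2 and 991 to 6473 with each library left out, the highest without pod replicate 3 of 15 DAF. Those with a smaller one (325) numbered 197, 738 and 598 under the first 3 of these, and 213 to 470 with each library left out. Against 20 DAF, larger differences (10265) numbered 2387 with median-ratio scaling, 3260 without the 50 most abundant genes, 3803 with a minimum difference of 2 and 8054 to 10559 with each library left out; smaller ones (624) numbered 1635, 1236, 364 and 540 to 705. The cause was not tested.

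No named gene turned its sign. With each library left out in turn, the calls of the 154 named genes called at 10 DAF stood in 899 fits of a gene and were lost in 25, over 11 genes, and 3 of the 30 genes not called gained a call. Of the counts of list members 46 moved by over 1.5 times and 1010 did not, and of the list medians 66 moved by more than the spread between libraries, against 198. The 50 genes left out were the most abundant on average over all 18 libraries, not at 10 DAF alone. Of the 8 cupins 7 are among them, and the 1 that remained was higher in grain. No paired analysis was possible because the 10 DAF pod columns carry no number that the labels tie to a grain library. Read depth is unknown, so counting error could not be given, and low TPM values are the least certain.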

Other observations

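Called genes with the same description went 1 way more often than both ways at 10 DAF. Among the kept genes, 1804 descriptions with a gene symbol were shared by at least 2 genes, and in 522 of them at least 2 genes were called. In 142 of these (27.2%) the called genes went both ways, in 174 all were higher in grain and in 206 all were lower. MLP43, a family of small ligand-binding proteins named after major latex proteins, had 9 kept genes, 1 higher and 7 lower in grain. The O-methyltransferase OMT1 had 10 kept genes, 1 higher and 6 lower, and the glycosyltransferase UGT72B1 had 9, of which 5 were higher and 1 lower. The polygalacturonase inhibitor PGIP1, which blocks fungal wall-degrading enzymes, had 6, of which 3 were higher and 2 lower. How reads shared between such paralogs were assigned is not stated.

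Genes without a description were among the most abundant of pod. Named after their values were seen, Phvul.009G211300 had 4084, 1590 and 2055 TPM in grain, against 57363, 21446 and 37976 TPM in pod (log2 difference -3.92, limma adjusted p = 0.000504). Phvul.011G204600 had 10.3, 34.4 and 6.68 TPM in grain, against 9372, 9680 and 7508 TPM in pod (log2 difference -9.24, limma adjusted p = 5.51e-08). In grain, Phvul.008G217300 had 2789, 1846 and 2613 TPM, against 1.03, 1.76 and 10.6 TPM in pod (log2 difference 9.21, adjusted p = 1.21e-09). Phvul.007G222000 had 716, 1590 and 1118 TPM in grain, against 0.036, 0.093 and 1.59 TPM in pod (log2 difference 9.57, adjusted p = 2.58e-12). The libraries of the tissues did not overlap for any of the 4. The last 3 differ by more than most of the described genes named for the largest differences.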
